A study of Mus musculus with 6 samples.

Results

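The mitochondrially encoded subunits of respiratory complex I are 7 genes, mt-Nd1, mt-Nd2, mt-Nd3, mt-Nd4l, mt-Nd4, mt-Nd5 and mt-Nd6 (here called the ND genes), out of 27179 genes listed in each library. They were taken by gene name from the count files. They were chosen because earlier results of these libraries showed them higher in the mutants, so their values between genotypes are a description and carry no test. RNA was measured in circulating erythrocytes of male BalB/c mice, 3 with the genotype Nxf1+/C587R and 3 littermates with the genotype Nxf1+/+. Nxf1 protein carries mRNA out of the nucleus, and the mutants carry the C587R allele beside a wild-type one. Each library came from 1 animal, and each of 3 numbered batches held 1 mutant and 1 wild-type library, so a library is named here by its genotype and its batch number. The animals' ages are not given in the sources used here.

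Complex I, NADH:ubiquinone oxidoreductase, takes electrons from NADH, passes them to ubiquinone and pumps protons across the inner mitochondrial membrane. Its membrane arm is built around the ND proteins, which are made inside the mitochondrion, while all its other subunits are encoded in the nucleus and imported. Red cells clear their mitochondria as they mature, so that reticulocytes, the youngest circulating red cells, still hold some and older red cells have none. Mitochondrial genes are transcribed as long precursors from each strand and cut apart largely at the transfer RNAs between them, and most of the resulting mRNAs then receive a short poly(A) tail.

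On the mitochondrial genome (MT, mm10, the same sequence as in GRCm38) the ND genes were spread from mt-Nd1 (2751 to 3707) to mt-Nd6 (13552 to 14070). mt-Nd1 and mt-Nd2 (3914 to 4951) lay directly downstream of the ribosomal RNA genes. After the COX and ATP genes came mt-Nd3 (9459 to 9806), mt-Nd4l (9877 to 10173), mt-Nd4 (10167 to 11544) and mt-Nd5 (11742 to 13565). Of the 7, mt-Nd6 alone was annotated on the minus strand. Its coding strand held 28.1% G and 6.0% C, whereas the other ND genes held 8.0% to 11.6% G and 22.1% to 30.0% C. All 7 are single exons with no annotated UTR, and the gene lengths in the count files, from 297 bases for mt-Nd4l to 1824 for mt-Nd5, equalled those of the annotation.

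The annotated 3′ ends are shown because polyadenylated RNA was sequenced. Where the tail of each transcript is joined was not examined here. It need not be at the annotated end, as mt-Nd4l runs into mt-Nd4. Capitals mark the last annotated codon, or the part of it that is encoded. The sequences are those of the reference strain in GENCODE (GRCm38), written 5′ to 3′ on each gene's own strand. That strain is C57BL/6J and not the BalB/c of these animals, whose own mitochondrial and nuclear copies were not analysed here.
mt-Nd1: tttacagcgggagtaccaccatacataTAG
mt-Nd2: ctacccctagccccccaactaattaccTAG
mt-Nd3: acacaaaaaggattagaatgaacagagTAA
mt-Nd4l: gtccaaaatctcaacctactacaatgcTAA
mt-Nd4: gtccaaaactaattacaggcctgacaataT
mt-Nd5: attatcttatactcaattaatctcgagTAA
mt-Nd6: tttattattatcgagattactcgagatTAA
In mt-Nd4 the annotated gene ends on the T of its last codon, and 1 base of that codon is encoded. As background, mitochondrial mRNAs of this kind gain a full stop codon when the poly(A) tail is added.

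Neighbouring ND genes overlap at 2 places. Reads there lie in both genes, and how such reads were counted is not given in the sources used here. mt-Nd4l and mt-Nd4 are read from the same strand in different frames and share 7 bases, in capitals here with 20 bases to each side (plus strand).
mt-Nd4l with mt-Nd4: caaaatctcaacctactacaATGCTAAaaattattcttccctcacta
The capitals hold both the start codon of mt-Nd4 and the stop codon of mt-Nd4l. mt-Nd5 and mt-Nd6 run towards each other from opposite strands and share 14 bases, shown on the strand of mt-Nd5.
mt-Nd5 with mt-Nd6: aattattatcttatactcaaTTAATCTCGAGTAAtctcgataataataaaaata
The counting strand is not given in the sources used here, so reads of mt-Nd6 and reads of transcripts from the opposite strand over the same bases cannot be told apart in these counts.

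The reference nuclear genome also holds a near-perfect copy of this stretch of mitochondrial DNA, on the minus strand of chromosome 1, in which GENCODE annotates 3 ND pseudogenes. Gm28438 (chromosome 1, 24612775 to 24613119) covers 345 of the 348 bases of mt-Nd3 with 1 difference, T3C (the base of mt-Nd3, its position from the gene's 5′ end, and the base of the pseudogene). Gm10222 (24612407 to 24612700) covers 294 of the 297 bases of mt-Nd4l and Gm28439 (24611535 to 24612410) the first 876 of the 1378 bases of mt-Nd4, both with 0 differences. The start of mt-Nd3 and the whole of mt-Nd4l are shown for this reason, with the base that differs from the pseudogene in capitals. mt-Nd4l has no such base.
mt-Nd3 (first 100 bases): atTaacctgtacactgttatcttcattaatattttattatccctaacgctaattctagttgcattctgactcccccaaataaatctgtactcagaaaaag
mt-Nd4l: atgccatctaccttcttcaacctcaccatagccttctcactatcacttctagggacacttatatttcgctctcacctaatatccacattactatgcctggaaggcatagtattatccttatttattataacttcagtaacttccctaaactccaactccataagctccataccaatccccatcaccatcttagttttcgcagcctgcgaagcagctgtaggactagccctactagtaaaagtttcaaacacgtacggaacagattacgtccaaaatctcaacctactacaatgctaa
Of all stretches of 100 bases in a gene, 97.6% in mt-Nd3, 98.5% in mt-Nd4l and 60.8% in mt-Nd4 recurred without a difference in an annotated nuclear transcript or pseudogene. The share was 3.2% in mt-Nd2 and 0% in mt-Nd1, mt-Nd5 and mt-Nd6. With stretches of 50 bases it was 98.0%, 98.8% and 62.2% for the first 3 genes, 8.2% for mt-Nd2, 7.6% for mt-Nd5 and 0% for mt-Nd1 and mt-Nd6. Nuclear sequence outside annotated transcripts and pseudogenes was not searched, so a share of 0% does not show that a gene has no nuclear copy. A read from a shared stretch can be placed at either copy, and how such reads were handled and how long the reads were is not given in the sources used here. The counts of mt-Nd3, mt-Nd4l and mt-Nd4 are therefore uncertain as levels.

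Total counts per library ran from 14636739 to 15790336, of which globin genes took 88.1% to 89.3%. Levels below are in CPM, the count per 1e6 counts of the library, with the library total multiplied by its TMM factor, which aligns the bulk of genes between libraries. The factors were 0.720, 0.780 and 1.06 in mutant libraries 1 to 3 and 1.23, 1.11 and 1.23 in wild type. They shift every mutant level upwards against wild type, so values without them are given beside the main ones. The median log2 fold change of the 2823 genes tested was −0.06 with these factors and −0.53 without them, and 84.9% of the genes called by edgeR were higher in the mutants with them and 31.9% without.

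Together the 7 ND genes had 6742, 10800 and 15957 counts in mutant libraries 1, 2 and 3, and 1776, 1603 and 1839 in wild type. As a share of all counts this was 0.0444% (95% Wilson interval 0.0434 to 0.0455), 0.0708% (0.0695 to 0.0722) and 0.109% (0.107 to 0.111) in the mutants, and 0.0115% (0.0109 to 0.0120), 0.0109% (0.0104 to 0.0114) and 0.0116% (0.0111 to 0.0122) in wild type. The intervals cover counting error only. The group means were 0.0747% ± 0.0325 and 0.0113% ± 0.000379 (SD, n = 3 each), a 6.59-fold difference, and the groups did not overlap. The mutants differed among themselves far more than the wild types did, and the fold difference within a batch was 3.86 in batch 1, 6.50 in batch 2 and 9.40 in batch 3. With the TMM factors the summed level was 617, 908 and 1029.9 CPM in the mutants against 93.3, 97.8 and 94.8 CPM in wild type. In such bulk samples, fewer cells of a type and less RNA per cell cannot be told apart.

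**Figure D1:**
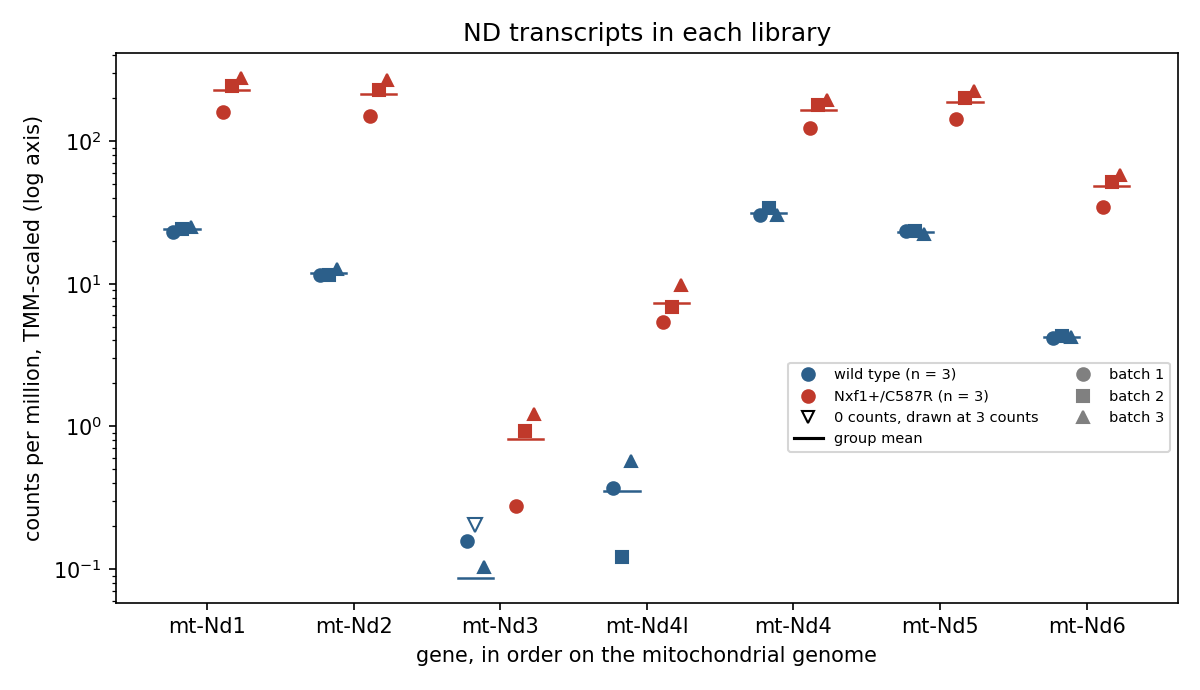
TMM-scaled CPM (log axis) of each ND gene in the 3 wild-type (blue) and 3 mutant (red) libraries, with marker shape for batch, bars for group means (zeros included) and an open triangle for a library with 0 counts. Mutant library 1 (circle) is the lowest of the 3 mutants for all 7 genes and lies above every wild-type library on this scale, which for mt-Nd3 (0.275 against at most 0.158) rests on 3 counts in each of mutant library 1 and wild-type library 1.

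mt-Nd1 encodes a subunit at the joint of the membrane arm and the peripheral arm, next to the site where ubiquinone is reduced. It had 161, 242 and 277 CPM in mutant libraries 1 to 3 and 23.0, 24.2 and 24.9 CPM in wild type. The wild-type libraries were close together and all mutants lay above them. The means were 227 ± 59.7 and 24.0 ± 1.00 CPM (SD, n = 3 each), a 9.45-fold difference (6.98-fold as a share of all counts). The fitted log2 fold change was 3.24 (SE 0.20).

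mt-Nd2, mt-Nd4 and mt-Nd5 encode the 3 large subunits of the membrane arm that resemble antiporters and are assigned to proton pumping. mt-Nd2 had 151, 228 and 266 CPM in the mutants, against 11.6, 11.5 and 12.6 CPM among wild types, without overlap. Its means of 215 ± 58.6 and 11.9 ± 0.610 CPM (SD, n = 3 each) stood 18.0-fold apart (13.3-fold as a share of all counts), and its log2 fold change was 4.17 (SE 0.21). It was therefore scarcer than mt-Nd1 in wild type and nearly equal to it in the mutants.

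mt-Nd4 had 124, 179 and 194 CPM in the mutants, against 30.4, 34.2 and 30.1 CPM among wild types, again without overlap. The difference of the means was 5.25-fold (3.86-fold as a share of all counts) with a log2 fold change of 2.39 (SE 0.18), the smallest of the ND genes. mt-Nd5 had 142, 199 and 224 CPM in the mutants, against 23.6, 23.5 and 22.2 CPM among wild types. The groups did not overlap, and the difference was 8.14-fold (5.99-fold as a share of all counts), with a log2 fold change of 3.02 (SE 0.19).

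mt-Nd6, the minus-strand gene, encodes a membrane-arm subunit that lies beside mt-Nd1 protein. Its level was 34.4, 52.0 and 58.3 CPM in the mutants, against 4.15, 4.33 and 4.22 CPM among wild types, without overlap. The means of 48.2 ± 12.4 and 4.24 ± 0.0918 CPM (SD, n = 3 each) differed 11.4-fold (8.40-fold as a share of all counts), and the log2 fold change was 3.51 (SE 0.22).

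mt-Nd4l and mt-Nd3 encode small membrane subunits and were the least counted. mt-Nd4l had 59, 82 and 151 counts in the mutants, against 7, 2 and 11 among wild types, or 5.40, 6.89 and 9.75 CPM against 0.368, 0.122 and 0.567 CPM. The groups did not overlap, and its log2 fold change of 4.32 (SE 0.37) rested on 20 wild-type counts. The means differed 20.9-fold (15.2-fold as a share of all counts). mt-Nd3 had 3, 11 and 19 counts in the mutants, against 3, 0 and 2 among wild types, where a count of 0 allows up to 3 counts or 0.204 CPM of all counts. It did not pass the filter on low counts. Summed over libraries and scaled with the TMM factors, its ratio was 9.45 (exact binomial 95% interval 3.67 to 31.0, counting error only), and mutant library 1 had no more counts than wild-type library 1. As a share of all counts its means differed 6.92-fold. Fitted without the filter it had a log2 fold change of 3.16 (SE 0.65).

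Of the 7 genes, 6 passed the filter on low counts, and all 6 were among the 5.99% of tested genes that edgeR called higher in the mutants (1.06% were called lower and 7.05% either way). With total counts 4.07% were called higher and 8.68% lower, and with batch as a term 6.87% and 2.13%. Nothing is read from that count, since the genes were chosen on the same contrast. By comparison, 12.3% of the tested genes had all mutant libraries above all wild-type libraries in TMM-scaled CPM. Leaving out any 1 library kept the log2 fold change between 3.15 and 3.50 for mt-Nd1, 4.07 and 4.43 for mt-Nd2, 2.35 and 2.63 for mt-Nd4, 2.97 and 3.26 for mt-Nd5, 3.43 and 3.76 for mt-Nd6 and 3.98 and 4.83 for mt-Nd4l.

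Levels of different genes can be set side by side only per length. In wild type the order was mt-Nd1 (25.1 ± 1.05 CPM per kilobase), mt-Nd4 (22.9 ± 1.63), mt-Nd5 (12.7 ± 0.447), mt-Nd2 (11.5 ± 0.587), mt-Nd6 (8.16 ± 0.177), mt-Nd4l (1.19 ± 0.750) and mt-Nd3 (0.250 ± 0.230; SD, n = 3 each). Neighbouring pairs in this order, mt-Nd1 with mt-Nd4, mt-Nd5 with mt-Nd2 and mt-Nd4l with mt-Nd3, overlapped between libraries. In the mutants the order was mt-Nd1 (237 ± 62.4 CPM per kilobase), mt-Nd2 (207 ± 56.4), mt-Nd4 (120.3 ± 26.9), mt-Nd5 (103 ± 23.0), mt-Nd6 (92.9 ± 23.8), mt-Nd4l (24.7 ± 7.43) and mt-Nd3 (2.32 ± 1.40). This order was the same in each mutant library, although across libraries mt-Nd1 overlapped with mt-Nd2, mt-Nd4 with mt-Nd5 and mt-Nd5 with mt-Nd6. The lowest mt-Nd2 value (145 CPM per kilobase) lay just above the highest of mt-Nd4 (141). mt-Nd2 is the gene that stood higher in this order than in wild type, above mt-Nd5 and mt-Nd4. mt-Nd3 and mt-Nd4l, the genes almost wholly contained in the chromosome 1 copy, were lowest per kilobase in both groups. Counted per kilobase of unshared 100-base stretches instead, a scale chosen after the values were seen, mt-Nd4 was the highest of the ND genes that could be scaled, with 62.9 ± 4.48 in wild type and 330.3 ± 73.9 in the mutants, against 28.0 ± 1.17 and 264 ± 69.6 for mt-Nd1. This scale assumes that no read from a shared stretch was counted, and how such reads were handled is not given. mt-Nd4l, with 3 unshared stretches, still had 292 counts over the mutants and was not scaled. The order of mt-Nd1 and mt-Nd4 thus depends on the scale chosen. The part of the shared sequence in the low counts of mt-Nd3 and mt-Nd4l was not tested.

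**Figure D2:**
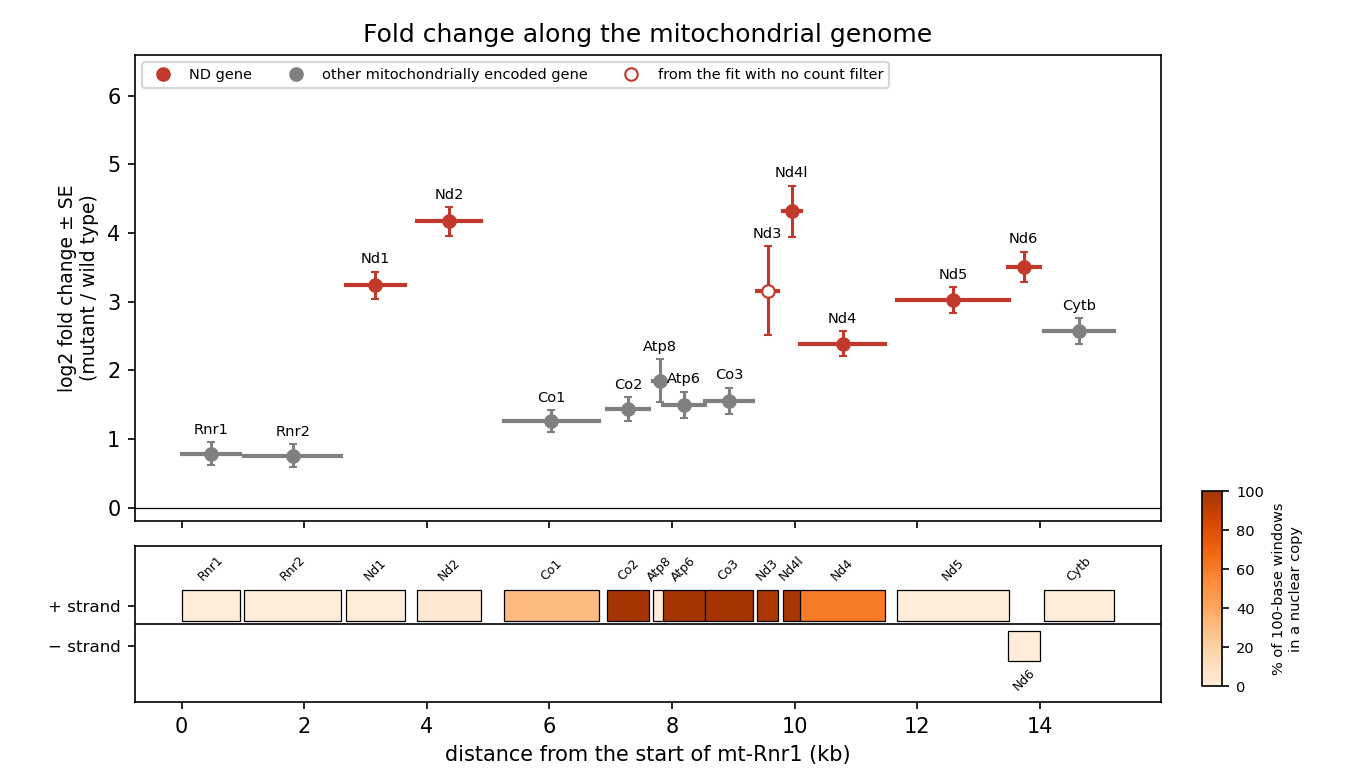
Upper panel: fitted log2 fold change (mutant over wild type, ± SE) of the 15 mitochondrially encoded genes in the files, drawn over each gene's extent as distance from the start of mt-Rnr1 in kilobases. Lower panel: the genes by strand, shaded by the percent of 100-base windows found in an annotated nuclear copy; ND genes (red) run from 2.39 (mt-Nd4) to 4.32 (mt-Nd4l), and mt-Nd3 is open because it comes from the fit with no filter.

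The fold differences did not run in order along the genome. mt-Nd1 and mt-Nd2 (log2 3.24 and 4.17) follow directly on mt-Rnr2, which had 0.76 (SE 0.17), and precede mt-Co1, which had 1.26 (SE 0.16). Without the TMM factors these 4 values were 2.80, 3.73, 0.26 and 0.79. The adjacent and overlapping mt-Nd4l and mt-Nd4 had 4.32 (SE 0.37) and 2.39 (SE 0.18). The overlapping mt-Nd5 and mt-Nd6, on opposite strands, had 3.02 (SE 0.19) and 3.51 (SE 0.22). The counts over the minus-strand gene thus changed within the range of the plus-strand ND genes. They can hold reads from either strand, so this is not a comparison of strands.

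Ratios between ND genes within a library do not depend on scaling, and they differed between the groups with little spread inside each. The ratio of mt-Nd1 to mt-Nd2 counts was 1.07, 1.06 and 1.04 in the mutants, against 1.98, 2.10 and 1.98 among wild types. That of mt-Nd4 to mt-Nd5 was 0.873, 0.903 and 0.869 against 1.29, 1.45 and 1.36. That of mt-Nd6 to mt-Nd5 was 0.243, 0.262 and 0.261 against 0.176, 0.184 and 0.191. None of these 3 ratios overlapped between the groups, although the mutants' summed ND counts ran from 6742 to 15957. The ratio of mt-Nd1 to mt-Nd5 was 1.14, 1.22 and 1.24 in the mutants, against 0.971, 1.03 and 1.13 among wild types, so that the nearest libraries of the groups almost touched.

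Apart from the least counted mt-Nd4l and mt-Nd3, the make-up of the ND counts was near constant within a genotype. mt-Nd2 made up 25.1% ± 0.700 of them in the mutants, against 12.5% ± 0.755 among wild types (SD, n = 3 each). mt-Nd4 made up 19.6% ± 0.624 and 33.1% ± 1.61. mt-Nd6 made up 5.65% ± 0.0702 and 4.45% ± 0.0153. mt-Nd1 held about the same part in both, 26.6% ± 0.416 and 25.2% ± 0.954, with the ranges overlapping. mt-Nd5 held 22.2% ± 0.700 and 24.2% ± 0.971, without overlap. mt-Nd4l ran from 0.759% to 0.946% in the mutants and from 0.125% to 0.598% in wild type. mt-Nd3 ran from 0.0445% to 0.119% and from 0% to 0.169%.

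**Figure D3:**
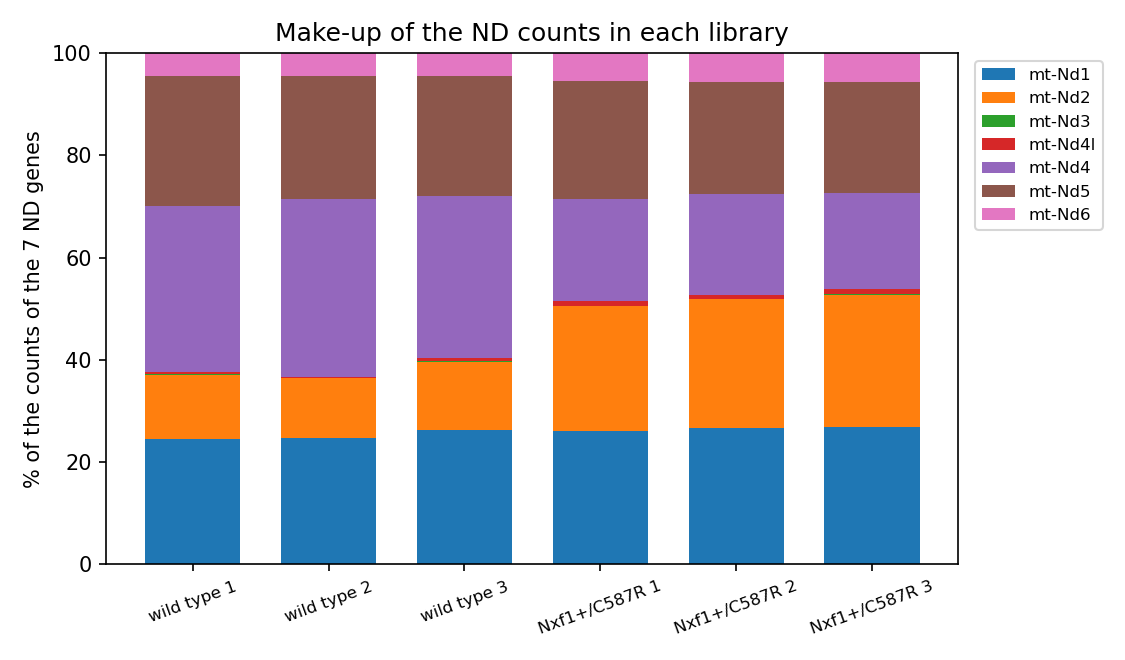
Percent of the summed counts of the 7 ND genes held by each gene (stacked bars, 1 bar per library, 3 wild-type and 3 mutant). mt-Nd2 takes 11.8% to 13.3% in wild type and 24.4% to 25.8% in the mutants, and mt-Nd4 31.8% to 34.9% and 18.9% to 20.1%.

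The other 8 mitochondrially encoded genes in the files encode the COX, ATP synthase and cytochrome b subunits and the ribosomal RNAs. All 8 were called higher in the mutants (edgeR, adjusted p 4.48e-08 to 0.00741, against 5.99% of all tested genes), with log2 fold changes of 0.76 to 2.57 and a median of 1.47. Without the TMM factors 6 were called higher (against 4.07% of all tested genes), and mt-Rnr1 and mt-Rnr2 were not (edgeR adjusted p = 0.0830 and 0.0787). Nearest to the ND genes was mt-Cytb, cytochrome b of complex III and the gene next to mt-Nd6, with 245, 365 and 418 CPM in the mutants, 55.9, 64.5 and 53.1 CPM in wild type and a log2 fold change of 2.57 (SE 0.19), or 2.13 without the TMM factors. This was above the 2.39 of mt-Nd4 (1.95 without the factors), so the ND genes and the others were not fully separated in size. mt-Co1, the most counted mitochondrial mRNA, had 2294, 2685 and 2515 CPM against 952, 1221 and 946 CPM. The other COX subunits, mt-Co2 and mt-Co3, rose by 1.44 (SE 0.17) and 1.56 (SE 0.19) on the log2 scale. The ATP synthase subunits mt-Atp8 and mt-Atp6 had 1.85 (SE 0.31) and 1.50 (SE 0.19), and mt-Rnr1 0.79 (SE 0.17). Without the TMM factors mt-Co2, mt-Co3, mt-Atp8, mt-Atp6 and mt-Rnr1 had 0.97, 1.08, 1.40, 1.06 and 0.30. mt-Co2, mt-Atp6 and mt-Co3 also recurred almost wholly in annotated nuclear transcripts or pseudogenes (99.5%, 99.5% and 99.9% of 100-base stretches).

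ND transcripts took a larger part of the mitochondrial mRNA counts in the mutants. They made up 19.0%, 22.3% and 25.3% in mutant libraries 1 to 3 and 8.22%, 6.87% and 8.42% in wild type. The ratio of summed ND counts to summed COX, ATP and cytochrome b counts was 0.235, 0.288 and 0.339 in the mutants, against 0.0896, 0.0738 and 0.0919 among wild types, a 3.38-fold difference of the means. Against the 2 ribosomal RNAs it was 0.186, 0.273 and 0.392 and 0.0592, 0.0446 and 0.0571, a 5.29-fold difference. Neither ratio overlapped between the groups, and no test is given because the ND genes were chosen on this contrast. Most COX, ATP and cytochrome b counts were of mt-Co1 (25049 of 28680 in mutant library 1 and 18126 of 19821 in wild-type library 1). The first ratio therefore mainly sets the ND genes against mt-Co1. For mt-Nd5 to mt-Cytb the ratio was 0.578, 0.545 and 0.535 in the mutants. In wild type it was 0.423, 0.364 and 0.417, a 1.38-fold difference of the means. Among the ND genes, only mt-Nd4 had a lower log2 fold change than mt-Cytb (2.39 against 2.57).

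The nuclear-encoded part of complex I did not show a difference of this size. Of 36 nuclear subunit genes in the files, 10 had enough counts to be tested, 1 was called higher, 0 lower and 9 were not called (edgeR and DESeq2 gave the same counts and 0 were lower at an unadjusted p under 0.05, against 5.99% higher and 1.06% lower of all tested genes). Their median log2 fold change was 0.02, from −0.73 to 0.86, beside −0.06 over all genes tested. Summed over all 36 genes and without the TMM factors, their counts were 852, 903 and 943 in the mutants. Among wild types the sums were 973, 963 and 929, and the ranges overlapped. Scaled with the TMM factors, the sum was higher in every mutant library than in every wild-type library, a description with no test. The 26 genes that were not tested had 1 to 52 counts each over the 6 libraries.

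Ndufa1, a small membrane-arm subunit encoded on the X chromosome, was the called gene and also the most counted. It had 42.5, 38.4 and 30.5 CPM in the mutants, against 20.6, 23.4 and 17.4 CPM among wild types, without overlap. Its log2 fold change was 0.86 (SE 0.18, edgeR adjusted p = 0.00428). The call was lost without the TMM factors (log2 0.35, adjusted p = 0.156) and without wild-type library 3 (adjusted p = 0.0710). The next most counted were not called: Ndufa3, another membrane-arm subunit, had a log2 fold change of 0.31 (SE 0.20, edgeR adjusted p = 0.459), Ndufa13 −0.04 (SE 0.23, adjusted p = 0.952), Ndufb9 0.08 (SE 0.28, adjusted p = 0.930) and Ndufb11 −0.45 (SE 0.30, adjusted p = 0.488).

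**Figure D4:**
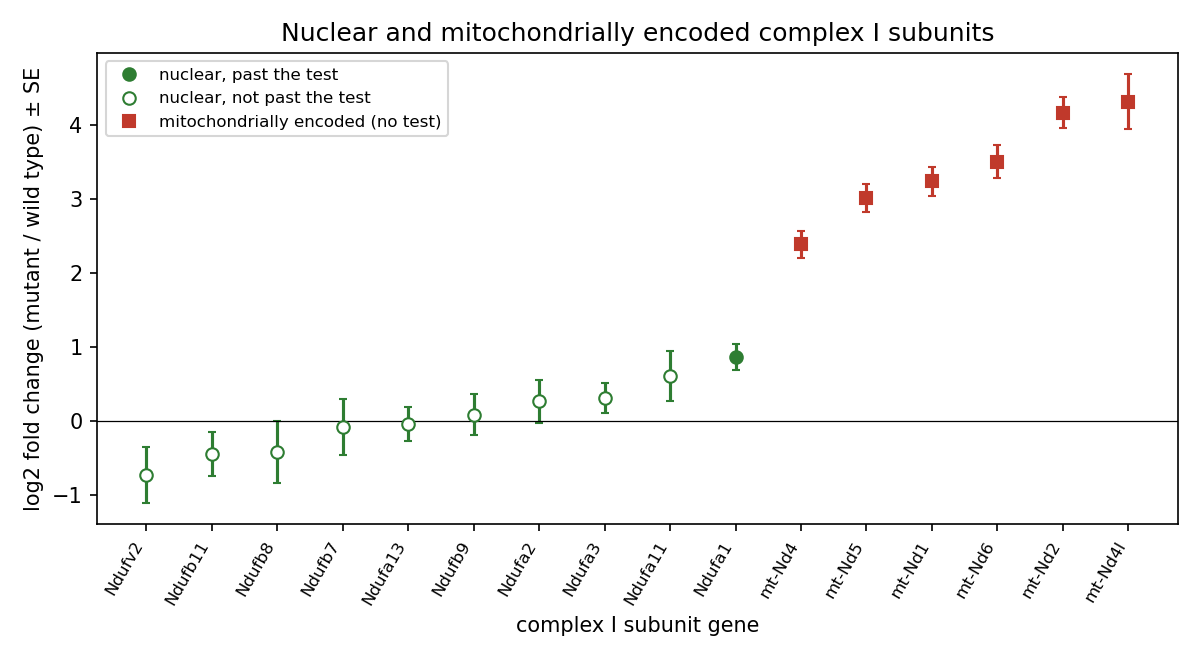
Fitted log2 fold change (mutant over wild type, ± SE) of the 10 nuclear-encoded complex I subunit genes tested (green circles, filled where the adjusted p is under 0.05) and the 6 ND genes that passed the filter (red squares, no test). The nuclear genes lie between −0.73 and 0.86 and the ND genes between 2.39 and 4.32.

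Most genes that assemble complex I or that make, cut and degrade mitochondrial RNA had too few counts to be tested. The 18 assembly factors in the files had 12 to 33 counts in all per library and 0 were tested. With no filter on low counts 17 entered the edgeR fit, and 0 were called or had an unadjusted p under 0.05. Of the 33 genes for mitochondrial transcription, RNA processing and decay, such as Polrmt (the mitochondrial RNA polymerase), Tfam and Lrpprc, 1 could be tested. Without the TMM factors their summed counts were 177, 167 and 166 in the mutants, lower than the 285, 203 and 229 of the wild types without overlap. Scaled with the TMM factors, the sums overlapped between the groups. Both are descriptions with no test, and most of each sum came from 1 gene, Rexo2. The gene tested was Rexo2, an oligoribonuclease, with 131, 112 and 112 counts against 199, 154 and 158 and a log2 fold change of 0.03 (SE 0.21, edgeR adjusted p = 0.967), which was −0.50 without the TMM factors (adjusted p = 0.133). With no filter all 33 entered the edgeR fit, and 0 were called or had an unadjusted p under 0.05. DESeq2 could test 0 of the assembly factors and 1 gene of the other list, Rexo2, which it did not call. For the genes that did not pass the filter, the counts do not show whether the groups differed.

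The red cell identity of the libraries was checked with 13 erythroid markers, all of which were seen in each of the 6 libraries. Of these, 1 was called higher and 0 lower in the mutants (edgeR, against 5.99% and 1.06% of all tested genes), with a median log2 fold change of 0.06. Without the TMM factors 1 was called higher and 3 lower (against 4.07% and 8.68%), with a median of −0.45. The gene called higher both ways was Hbb-bs, an adult beta globin with near-identical copies, with log2 fold changes of 0.63 (SE 0.19, edgeR adjusted p = 0.0492) and 0.11 (adjusted p = 0.0299). Hba-a1 (alpha globin), Alas2 and Fech (first and last enzymes of heme synthesis) had 0.48, 0.41 and 0.37 with the factors and −0.04, −0.10 and −0.14 without them, and were not called (edgeR adjusted p = 0.158, 0.201 and 0.211 with them). Slc4a1, Sptb and Bpgm were those called lower without the factors, at −0.65, −0.90 and −0.45, beside −0.18, −0.43 and 0.06 with them. Tfrc, the transferrin receptor that marks young reticulocytes, had 9.16, 5.04 and 15.9 CPM in the mutants, against 7.62, 35.2 and 36.4 CPM among wild types, overlapping and not called (log2 fold change −1.38, SE 0.79, edgeR adjusted p = 0.481; −1.77 without the factors). Bnip3l, which is needed to clear mitochondria from reticulocytes, had 670.0, 681 and 571 CPM against 468, 552 and 539 CPM (log2 fold change 0.30, SE 0.15, edgeR adjusted p = 0.307), and turned to −0.20 without the factors. The genes named here were picked from the list after its values were seen.

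Transcripts of hepatocytes were present in the mutant libraries, in which the ND genes were also high. Of 30 hepatocyte markers, 28 to 30 were seen in each mutant library and 3 to 5 in each wild-type library. Their summed counts were 2077, 4562 and 2546 in mutant libraries 1 to 3 and 100, 20 and 15 in wild type, or 137 to 299 and 0.950 to 6.45 CPM of all counts. In wild type 20 of the 30 were at 0 in all 3 libraries, among them Apoa1, Fga, Ahsg and Cps1, and Alb had 1 count. The order of the mutants differed between the measures: the hepatocyte markers were highest in library 2 and the ND genes in library 3, and ND counts per hepatocyte marker count were 3.25, 2.37 and 6.27. The part of the hepatocyte transcripts' source tissue in the ND counts was not tested.

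**Figure D5:**
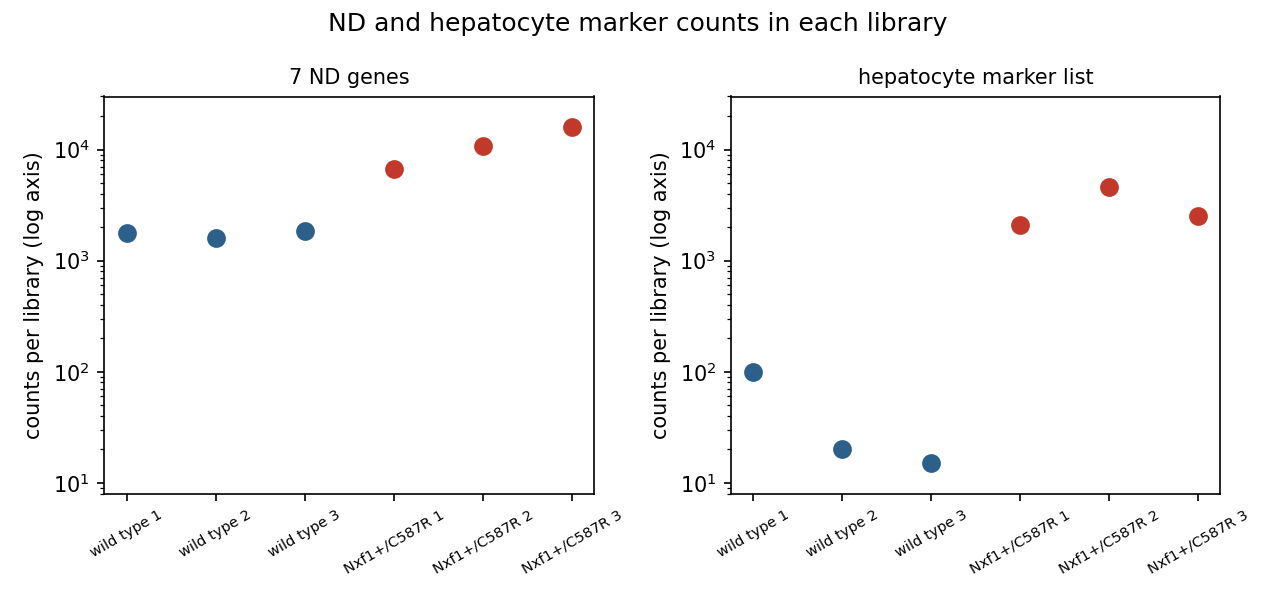
Counts per library (log axis) of the 7 ND genes (left) and of 30 hepatocyte markers (right) in the 3 wild-type (blue) and 3 mutant (red) libraries. Both are higher in every mutant library, with the ND counts highest in mutant library 3 (15957) and the marker counts in mutant library 2 (4562).

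Summed markers of other blood cells were not higher in all mutant libraries than in wild type, and no test was made of them. Platelet markers (13 of 13 seen in both groups) had 316, 112 and 243 counts in the mutants, against 270, 277 and 515 among wild types, which overlapped. T and NK cell markers had 28, 44 and 28 counts against 72, 103 and 174, and B cell markers 299, 333 and 190 against 446, 357 and 894. Both were lower in all mutant libraries without the TMM factors. Scaled with those factors, the B cell sums overlapped between the groups. Neutrophil and monocyte markers had 989, 959 and 1727 against 1882, 1521 and 1681. The most counted members of these lists were Nrgn and Itga2b, Gzma and Lck, Ighm and Cd74, and S100a9 and S100a8. The part of these cells in the ND counts was not tested. Heart muscle gave 3 to 9 counts over 18 markers in the mutants and 4 to 12 in wild type. Of these 18, 4 were seen in the mutants and 8 in wild type. Myl2, Myl7, Nppa, Pln and Cox6a2 were seen in wild type only and Myh6 in the mutants only. Actc1, Tnnt2, Tnni3 and Mb were at 0 in both groups. Skeletal muscle (12 markers) and kidney tubule (10 markers) gave at most 9 and 2 counts per library. Exocrine pancreas markers (14) gave 394 counts in wild-type library 1, led by Cela2a (70) and Pnlip (56), and at most 3 elsewhere.

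The genes most like the ND genes over the 6 libraries were sought among 980 nuclear genes with a mean of at least 30 counts, by Pearson's r between log2 CPM and the mean log2 CPM of the 7 ND genes. The 5 highest were Alb (serum albumin, r = 0.983), Mup9 and Mup7 (major urinary proteins, 0.982 and 0.982), Serpina3k and Serpina1c (protease inhibitors of plasma, 0.980 and 0.980). All 5 are known from the liver, and 42 of the 980 genes had r above 0.9. In wild type Alb had 0, 1 and 0 counts and the other named genes 0 in every library. They therefore reached the mean of 30 counts through the mutants alone. An r of this kind reflects the step between the genotypes, on which the ND genes were chosen, and is no support for a link. These values are a description over 6 libraries that fall into the 2 genotypes, and Mup and Serpina1 genes have near-identical copies, so their single counts are uncertain. Within the mutants the order differed, as Alb had 44.9, 95.5 and 51.6 CPM in libraries 1 to 3, where mt-Nd1 had 161, 242 and 277 CPM.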

How the data were processed

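Polyadenylated RNA of erythrocytes, purified by Ficoll from blood of 3 mutant and 3 wild-type mice, was sequenced after TruSeq RNA v2 preparation, per the labels' protocols; as background, this kit does not mark strand. The deposited values are raw counts per gene, made by the authors with CASAVA 1.8.2, Subread and featureCounts on mm10, per the submitters' processing notes. The setting for multimapped reads is not given in the sources used here. Genes were tested with edgeR 4.0.16 in R 4.3.3 (TMM factors, its default filter on low counts, quasi-likelihood test, Benjamini-Hochberg adjustment over 2823 genes, calls at an adjusted p under 0.05). DESeq2 1.42.0, other scalings and filters, batch as a term and leaving out each library were the alternatives. The scripts were tested on simulated data. Batch numbers in the labels pair 1 library of each genotype, and deviations from the group means correlated at −0.116, −0.0855 and −0.0439 within the 3 pairs. Named genes were all ND and other mitochondrial genes, called or most counted genes of the lists, and the 5 most alike. The members and lists were chosen with earlier results of these data known, and 5 of 263 list entries matched no gene. Counts limit the precision, with 3 counts amounting to 0.190 to 0.205 CPM.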

Additional observations from a re-analysis of the deposited data

How the results depend on the processing

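Over all genes, 199 were called (169 higher, 30 lower) with the TMM factors, 360 with total counts (115 higher, 245 lower), 464 with no filter on low counts and 115 with a mean count of at least 50, and leaving out 1 library gave 152 to 278. Of the nuclear complex I subunits, 1 was called, and 0 with total counts. Leaving out 1 library gave 0 to 1, with 0 without wild-type library 3. The log2 ratio between genotypes of ND to other mitochondrial mRNA counts, most of the latter from mt-Co1, was 1.76. It was 2.40 with the ribosomal RNAs as the denominator, and 1.62 to 1.88 when 1 library was left out. The cause of these moves was not tested. The log2 fold changes of the ND genes kept their sign under all alternatives run. With the replicate block (batch as a term) 254 genes were called, the log2 ratio was 1.75, and no call on the lists changed.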
